A study of Mus musculus with 6 samples.

Results

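Among the 16640 genes with values in these MIN6 libraries, 7 encode the peptide hormones and prohormones other than insulin described here, namely *Cartpt*, *Pdyn*, *Agt*, *Ppy*, *Pyy*, *Sst* and *Gcg*. They were picked by gene symbol with the counts of these same libraries known. They were therefore selected on their levels, on their differences between *Thada*-activated and control cells and on their differences between replicate 3 and replicates 1 and 2. Their values in those contrasts are a description, for which no p-value is given. Where members are counted among called genes, the count only places them beside all genes of the same fit and supports nothing.

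MIN6 is a line derived from a mouse insulinoma and serves as a model of the insulin-secreting β-cell. RNA was sequenced to ask which transcripts differ once transcription of the cells' own *Thada* gene is raised. Control cells (3 libraries) had received lentiviruses for dCas9, a Cas9 that cannot cut, and for a guide RNA without a target. *Thada*-activated cells (3 libraries) had received a lentivirus for dCas9 fused to the VP64 activator and then, after puromycin selection, a lentivirus that carried a guide RNA for the *Thada* promoter together with the MS2-P65-HSF1 activators, followed by G418 selection. The activated cells were a stable selected line that is not stated to be a single clone, and the cells of all libraries had been infected and held dCas9. Replicates are numbered 1 to 3 in each condition, and the labels do not say that a number stands for a separate culture. The study says in general that its work in cells was repeated independently, without tying a library to a repeat, so p-values measure the spread between these libraries, which may be technical.

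Library totals ran from 17166511 counts in control replicate 2 to 17727004 counts in *Thada*-activated replicate 1, so that a single count was worth 0.0564 to 0.0583 CPM (counts scaled to a common library total). Levels at or under 3 counts were treated as the detection floor, and this floor covers counting error only. Values of a condition are given in the order of replicates 1, 2 and 3. *Thada* itself had 27.7, 29.0 and 16.96 CPM in the control libraries, against 57.4, 56.2 and 50.2 CPM in the activated libraries. The libraries of the conditions did not overlap for *Thada*, in the direction of their labels.

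The β-cell label was checked against the markers of that cell. *Ins2* had the highest level per gene length in all 6 libraries, measured as the authors' FPKM (fragments scaled to gene length and library size), and *Ins1* ranked between 3 and 5. The amyloid peptide gene *Iapp* averaged 55419 FPKM, and the β-cell transcription factor genes *Pdx1* and *Nkx6-1* averaged 163 and 92.5 FPKM. Of the 10 β-cell markers listed, 9 passed the filter on low counts, the exception being the glucose transporter gene *Slc2a2*, with 1 to 9 counts per library.

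Replicate 3 of both conditions stood apart from the other libraries. With condition as a term, 3893 of the 12516 genes tested were called between replicate 3 and replicates 1 and 2, where called means a Benjamini-Hochberg adjusted p under 0.05 and a fold change over 1.5 in edgeR's quasi-likelihood test. *Ins1* and *Ins2* together took 10.6% of the counts in control replicate 3 and 8.84% in *Thada*-activated replicate 3, against 5.87% to 6.73% in the other libraries. Other β-cell markers did not all share this, as 4 of the 9 tested were called lower and 1 higher, *Ins1*, with a median log2 difference of -0.58. Every condition difference of the 7 genes below is therefore also given within replicate numbers.

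Peptide hormones are made as larger precursors that enter the secretory pathway, are packed into dense-core granules and are cut there by prohormone convertases. In the islet each cell type is known by its hormone, with insulin from β-cells, glucagon from α-cells, somatostatin from δ-cells and pancreatic polypeptide from PP cells, and somatostatin restrains the release of insulin and glucagon. Lines grown from islet tumours often transcribe several of these genes side by side.

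Per gene length both insulin genes stood above all 7 genes in every library. Mean FPKM over the 6 libraries was 225648 ± 53051 (SD) for *Ins2*, 7405 ± 2266 for *Ins1*, 805 ± 134 for *Pdyn*, 259 ± 93.5 for *Sst*, 75.7 ± 21.3 for *Ppy*, 27.4 ± 19.1 for *Cartpt*, 21.7 ± 10.5 for *Agt*, 19.9 ± 3.08 for *Gcg* and 0.463 ± 0.289 for *Pyy*. *Pdyn*, *Sst* and *Ppy* led the 7 genes, in that order, in all 6 libraries. *Ppy* also exceeded *Cartpt* within each library, although their ranges over the libraries overlapped. *Cartpt*, *Agt* and *Gcg* overlapped with one another and swapped places. By FPKM the order among them was *Gcg*, *Agt*, *Cartpt* in control replicates 1 and 2, *Agt*, *Cartpt*, *Gcg* in *Thada*-activated replicates 1 and 2, and *Cartpt*, *Gcg*, *Agt* in replicate 3 of both conditions.

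**Figure D1:**
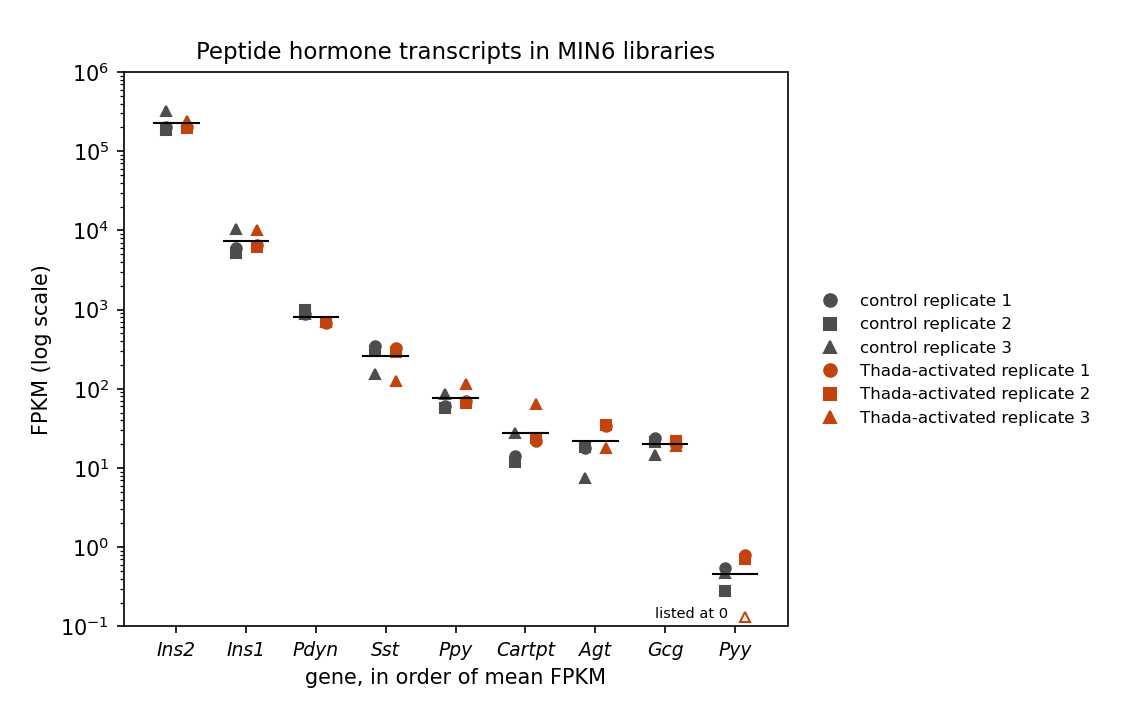
FPKM on a log axis of the 7 genes and of *Ins1* and *Ins2*, 1 point per library, with horizontal bars at the mean of the 6 libraries. *Pdyn* at a mean of 805 FPKM was the highest of the 7, *Pyy* was near 0, and its *Thada*-activated replicate 3 library, listed at 0, is drawn as an open symbol near the lower edge of the axis.

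The gap to insulin depended on the gene. *Ins1* was 5.23 to 14.5 times as high as *Pdyn* by FPKM in the same library, 17.04 to 79.8 times as high as *Sst* and 88.6 to 121 times as high as *Ppy*. *Ins2* was 184 to 366 times as high as *Pdyn* on the same scale. *Ins1* and *Ins2* are near-identical in their coding parts. RSEM, the counting tool named in the submitters' notes, divides shared reads by estimation, and its settings are not given, so the split between them is uncertain. Ranked among all genes by FPKM, *Pdyn* lay between ranks 32 and 91, *Sst* between 176 and 529, *Ppy* between 597 and 1378, *Gcg* between 3520 and 5207, *Cartpt* between 1238 and 6114 and *Agt* between 2444 and 7601. *Cartpt* and *Agt* thus had the widest span of ranks among the 6 genes that passed the filter.

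All counts of the 7 genes together made up 0.184% to 0.254% of a library, and *Pdyn* alone gave 86.05% to 93.7% of them. The summed share was 0.228%, 0.254% and 0.223% in the control libraries, and 0.184%, 0.190% and 0.184% in the activated libraries. All 3 activated libraries lay below all 3 control libraries, as they did for *Pdyn* alone.

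Between the conditions, *Cartpt* and *Agt* were higher and *Pdyn* was lower in *Thada*-activated cells in each of the 3 replicate numbers, *Ppy* was higher by a smaller margin, and *Sst* and *Gcg* had no common direction. Over all 12516 genes tested without the replicate number, edgeR called 0 genes (0%), 0 of the 6 members tested among them, while 101 genes had an unadjusted p under 0.05. DESeq2 called 5, but on 16610 genes, so that test and gene set changed together. A block on the replicate number gave 19 called genes (0.152%), 2 of the 6 members among them, *Cartpt* and *Agt*. *Thada* itself was called by edgeR with the block (log2 1.15, standard error 0.10) and not without it (1.13, standard error 0.22). The 0 calls without the block thus do not mean that no gene differed. By adjusted p alone, with no fold limit, the block gave 28 genes (0.224%) and 3 of the 6 members, *Pdyn* being the other, with a fold of 1.35 that lay under the limit. *Pdyn* did not stay in this count without both replicate 2 libraries. Without the block, DESeq2 gave 6 genes by adjusted p alone, *Pdyn* among them. These shares stand beside counts that the choice of genes had already used.

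*Cartpt* encodes the precursor of the CART peptides, found in neurons and in islet endocrine cells. The control libraries had 9.90, 8.10 and 19.1 CPM of it and the activated libraries 15.4, 16.6 and 46.2 CPM. Each activated library exceeded the control library of its number, and the groups overlapped because control replicate 3 lay above activated replicates 1 and 2. The mean was 12.4 ± 5.91 CPM (SD, n = 3) in control and 26.1 ± 17.4 CPM in activated cells. Within replicate numbers 1, 2 and 3 the log2 ratio of activated to control was 0.64, 1.04 and 1.27. The fitted log2 fold change was 1.04 with a standard error of 0.54, 0.99 with a standard error of 0.12 under the block, and 0.82 without the replicate 3 libraries. It depended on single libraries, from 0.36 without activated replicate 3 to 1.51 without control replicate 3. As this is bulk RNA, more RNA per cell and more cells that transcribe the gene cannot be told apart, nor can less RNA and fewer cells in the results that follow.

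*Pdyn* encodes prodynorphin, the precursor of the dynorphins, opioid peptides that act mainly on the κ receptor. Its level was 2042, 2335 and 2091 CPM in the control libraries, against 1579.5, 1650.1 and 1647 CPM in the activated libraries. Every activated library lay below every control library, and the activated libraries were close to one another. The mean was 2156 ± 157 CPM in control and 1626 ± 40.0 CPM in activated cells. Its log2 ratio was -0.37, -0.50 and -0.34 within replicate numbers 1, 2 and 3, with a fitted value of -0.43 (standard error 0.13) that came to -0.45 without the replicate 3 libraries.

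*Agt* encodes angiotensinogen, the precursor that renin cuts to yield angiotensin peptides. The control libraries had 30.2, 30.5 and 12.7 CPM and the activated libraries 56.3, 58.7 and 31.0 CPM. The groups did not overlap, but only narrowly so, since activated replicate 3 lay just above control replicates 1 and 2. Its log2 ratio was 0.90, 0.94 and 1.29 within replicate numbers 1, 2 and 3. The fitted log2 fold change was 0.97 with a standard error of 0.41, 1.00 with a standard error of 0.08 under the block, and 0.91 without the replicate 3 libraries, and it ran from 0.67 without control replicate 3 to 1.22 without activated replicate 3.

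Over all tested genes, 680 (5.43%) had conditions that did not overlap, beside 2 of the 6 members, *Pdyn* and *Agt*. A common direction in all 3 replicate numbers was found for 4120 genes (32.9%), beside 4 of the 6 members, *Cartpt*, *Agt* and *Ppy* being higher and *Pdyn* lower in activated cells.

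*Ppy* and *Pyy* encode pancreatic polypeptide and peptide YY, close relatives that lie next to each other on chromosome 11. In GRCm38, *Ppy* spans chr11:102099930-102101319 and *Pyy* chr11:102106676-102107832, both on the minus strand and 5356 bp apart. *Ppy* was measured at 19.5, 17.8 and 27.5 CPM in the control libraries, against 22.6, 21.6 and 39.8 CPM in the activated libraries. Replicate 3 was the highest library in both conditions, and the groups overlapped. The log2 ratio of activated to control was 0.21, 0.27 and 0.53 within replicate numbers 1, 2 and 3, and the fitted log2 fold change was 0.34 with a standard error of 0.30, and 0.02 without activated replicate 3. *Pyy* had 4, 2 and 3 counts in the control libraries, against 5, 5 and 0 counts in the activated libraries. It was over 3 counts in 3 of the 6 libraries, did not pass the filter on low counts and was not tested, so that no difference was detectable at this depth. For activated replicate 3 a count of 0 allows up to 0.174 CPM.

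*Sst* encodes somatostatin. Control libraries gave 154, 129 and 67.9 CPM and activated libraries 143, 131 and 59.2 CPM. Within replicate numbers the log2 ratios were -0.11, 0.02 and -0.20, and both replicate 3 libraries lay far below the rest. *Gcg* encodes proglucagon, cut to glucagon in α-cells and to glucagon-like peptides in the gut. Its level was 22.1, 19.4 and 13.6 CPM in the control libraries, against 18.2, 20.4 and 18.2 CPM in the activated libraries, so that the groups overlapped. Its log2 ratios were -0.28, 0.07 and 0.41, so that the activated library was the lower of its number in replicate 1 and the higher in replicate 3. The fitted log2 fold change was -0.09 (standard error 0.43) for *Sst* and 0.02 (standard error 0.20) for *Gcg*, and the signs of both turned when certain single libraries were left out (*Sst* 0.16 without control replicate 1 and 0.22 without activated replicate 3; *Gcg* -0.15 without control replicate 3 and -0.04 without activated replicate 2).

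**Figure D2:**
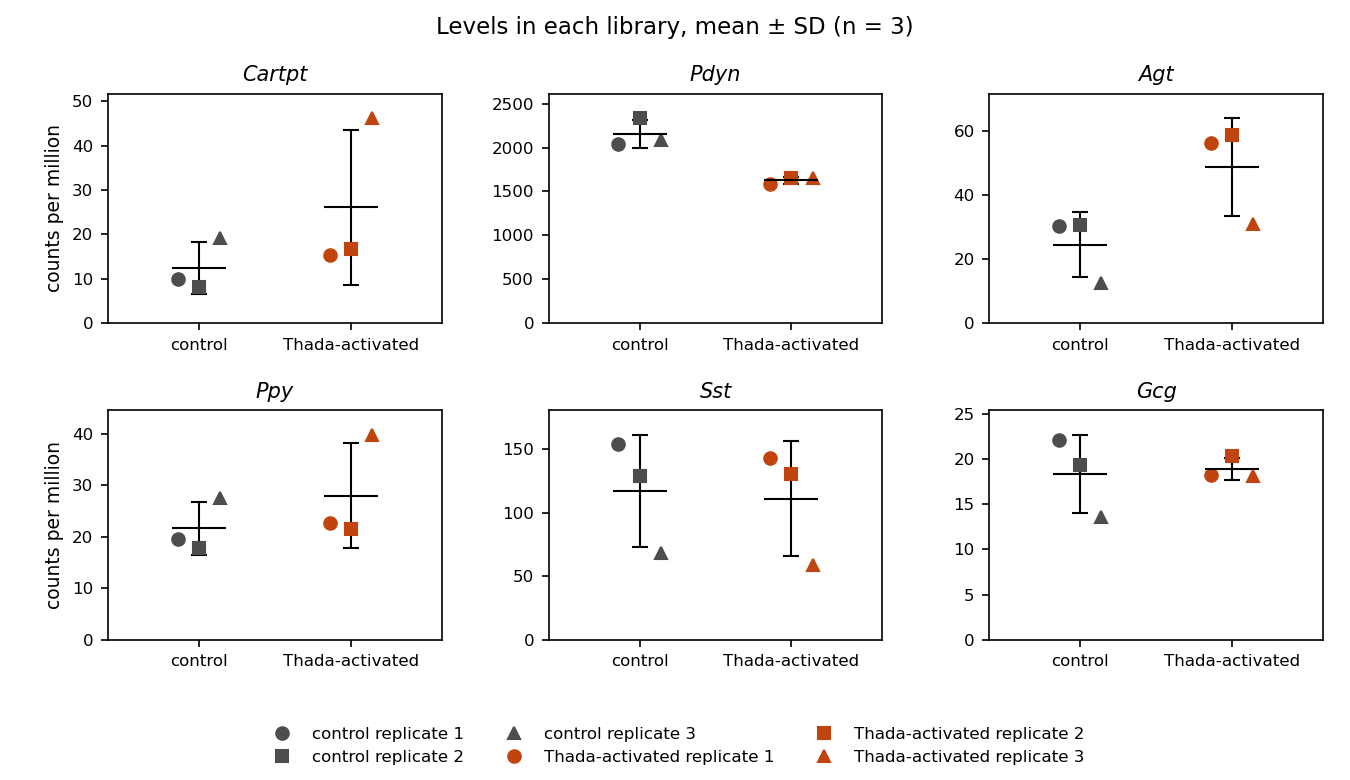
CPM of 6 of the 7 genes in each library, control in grey and *Thada*-activated in orange, with the mean and SD of each condition (n = 3). *Pdyn* and *Agt* did not overlap between conditions, and the replicate 3 libraries (triangles) were highest for *Cartpt* and *Ppy* and lowest for *Sst* and *Agt* within each condition.

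For reference, *Ins1* was higher in activated cells in all 3 replicate numbers by small margins, and *Ins2* had no common direction. The log2 ratio of activated to control within replicate numbers 1, 2 and 3 was 0.15, 0.27 and 0.05 for *Ins1* and 0.02, 0.16 and -0.28 for *Ins2*. The shifts of *Cartpt* and *Agt* within numbers were larger than any of these, and so was that of *Pdyn*, in the other direction. Whether they differ from those of insulin was not tested. The study reports, apart from its sequencing results, lower transcription of both insulin genes in *Thada*-activated cells. Within replicate numbers here *Ins1* did not show that direction, and *Ins2* showed it in replicate 3 only. The split of reads between these genes is uncertain, as said above.

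Between replicate 3 and replicates 1 and 2, the 6 of the 7 genes that were tested went different ways. *Cartpt* and *Ppy* were higher in replicate 3, *Sst* and *Agt* were lower, and *Pdyn* was nearly level. The background was broad, with 3893 of 12516 genes called (31.1%), 1970 higher (15.7%) and 1923 lower (15.4%) in replicate 3. Of the 6 members tested, 4 were called, 2 in each direction. Without the condition term 2 members were called. *Cartpt* (1.37) and *Agt* (-1.03) lost their calls there, with log2 differences about as large. The count of called members carries no weight of its own, because the contrast had been used to choose the genes. Replicate 3 lay outside the range of the other 4 libraries, on the same side in both conditions, for 9018 genes (72.1%) and for 4 of the 6 members, *Cartpt*, *Ppy*, *Sst* and *Gcg*. For *Gcg* this held only narrowly, as activated replicate 3 lay just below activated replicate 1 (18.17 against 18.22 CPM).

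The fitted log2 difference of replicate 3 from replicates 1 and 2 was 1.33 for *Cartpt* (standard error 0.10), a fold of 2.52, with 1.09 within control and 1.53 within activated libraries. For *Ppy* it was 0.70 (standard error 0.08), a fold of 1.63, with 0.56 within control and 0.85 within activated libraries. The insulin genes were at 0.82 (standard error 0.07) for *Ins1* and 0.57 (standard error 0.09) for *Ins2*, higher in replicate 3 as well. *Sst* was at -1.14 (standard error 0.08), 2.21-fold lower in replicate 3, with -1.05 within control and -1.21 within activated libraries. *Agt* was at -1.05 (standard error 0.09), 2.08-fold lower, with -1.26 and -0.89. *Gcg* was at -0.34 (standard error 0.12), with -0.60 within control and -0.08 within activated libraries. The smallest value was that of *Pdyn*, -0.03 with a standard error of 0.06. *Agt* was thus lower in replicate 3 and higher in activated cells, whereas *Cartpt* was higher in both, which placed *Thada*-activated replicate 3 at the top of all libraries for *Cartpt* and control replicate 3 at the bottom for *Agt*. Without activated replicate 3, *Ppy* fell under the fold limit (0.57) and *Gcg* passed it (-0.59).

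**Figure D3:**
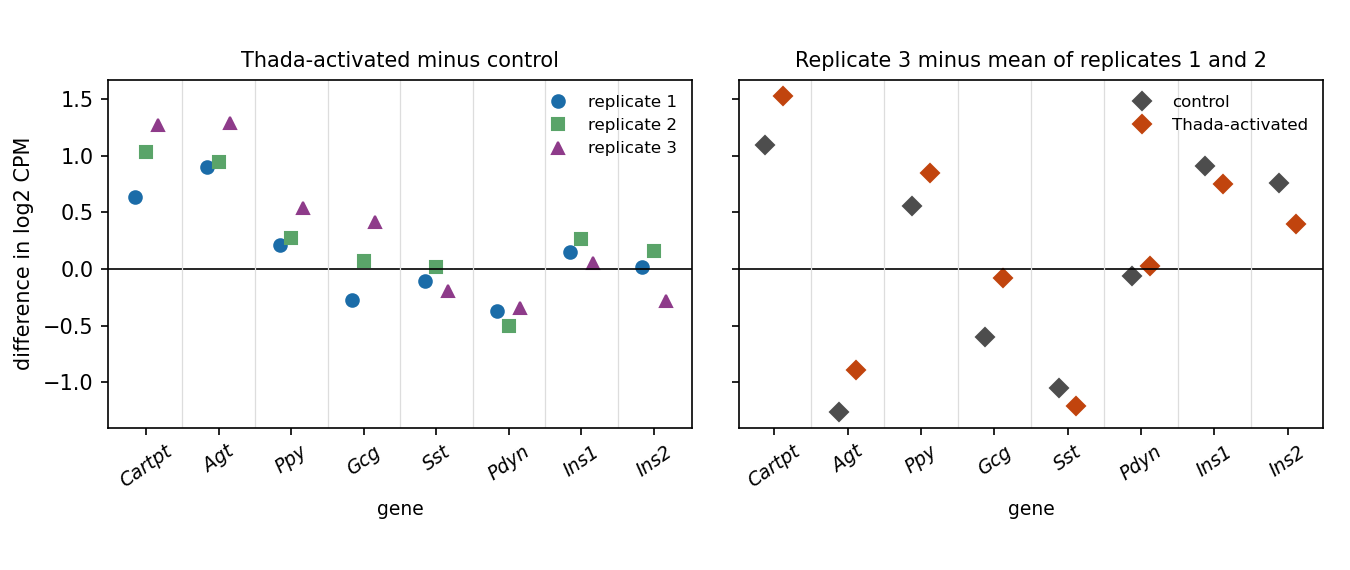
Differences in log2 CPM of 6 of the 7 genes and of the insulin genes, on the left *Thada*-activated minus control within each replicate number, on the right replicate 3 minus the mean of replicates 1 and 2 within each condition. *Cartpt* and *Agt* lay above 0 and *Pdyn* below 0 in all 3 numbers on the left, and *Sst* and *Agt* lay below 0 in both conditions on the right.

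The size of the condition difference in replicate 3 was set against that in replicates 1 and 2 with an interaction term. Over all genes, 227 of 12516 were called (1.81%) and 871 had an adjusted p under 0.05 by edgeR with no fold limit (6.96%), and 0 of the 6 members were among either. The estimates were 0.48 for *Gcg* (standard error 0.18), 0.40 for *Cartpt* (0.17), 0.33 for *Agt* (0.15), 0.25 for *Ppy* (0.15), 0.05 for *Pdyn* (0.09) and -0.19 for *Sst* (0.16), on the log2 scale. Each estimate rests on 1 replicate 3 library per condition.

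Other prohormone genes were looked up in a list of 80, of which 61 had values and 23 passed the filter. Of the 61, 25 were at or under 3 counts in every library, among them the ghrelin gene *Ghrl* with 1 to 2 counts. The highest 5 by mean FPKM were *Iapp* (55419), the cholecystokinin gene *Cck* (11409), the neuropeptide Y gene *Npy* (2399), the insulin-like growth factor gene *Igf2* (2095) and the nucleobindin gene *Nucb2* (167). All but *Nucb2* stood above the mean of *Pdyn* on the same scale. Between replicate 3 and replicates 1 and 2, 9 of the 23 were called, 6 higher and 3 lower. Over all tested genes 31.1% were called, 15.7% higher and 15.4% lower, and the calls of this list and of the lists below stand beside that share. Of the 5 called genes with the lowest p, the relaxin family genes *Insl3* (log2 difference 2.03, standard error 0.31) and *Insl6* (1.42, standard error 0.14) and the adrenomedullin gene *Adm* (1.16, standard error 0.09) were higher. *Nucb2* (-0.92, standard error 0.05) and the urocortin 3 gene *Ucn3* (-1.24, standard error 0.09), a marker of mature β-cells, were lower. The median over the 23 was 0.21, against 0.00 over all tested genes. Between conditions, 0 of the 23 were called with or without the block, and their median under the block was 0.05.

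Precursors are cut and packed by granins and processing enzymes, and 22 of the 23 genes listed for this passed the filter. The highest were *Chga* at a mean of 6989 FPKM, *Resp18* at 2632, *Scg2* at 2026, the carboxypeptidase gene *Cpe* at 1916 and *Scg5* at 931. In replicate 3 *Resp18* (log2 difference 1.15), *Scg5* (1.17), which encodes the chaperone of the convertase PC2, and *Pcsk1n* (1.18), which encodes an inhibitor of PC1/3, were called higher. The convertase gene *Pcsk1* itself (-0.81) and the granin gene *Vgf* (-1.02) were called lower, each with a standard error of 0.08. The list's median was -0.13, and 0 of the 22 were called between conditions with or without the block.

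Receptor genes were looked up in a list that holds receptors of the peptides of these genes, of insulin and of IGF1, and relatives of these receptors that bind none of these peptides, such as the GIP receptor and the insulin receptor-related receptor. Of 25 receptor genes listed, 18 had values and 8 passed the filter. At most 2 counts per library were seen for *Oprk1*, the κ receptor that dynorphins act on, and for *Agtr1a*, an angiotensin receptor, and at most 1 count for *Npy4r*, the receptor of pancreatic polypeptide. Another opioid receptor gene of the list, *Oprd1*, had 34 to 96 counts. It was higher in activated libraries without overlap, by a log2 of 0.88 (standard error 0.20) under the block, and was not called. The highest means were those of the GLP-1 receptor gene *Glp1r* (98.9 FPKM), the somatostatin receptor gene *Sstr3* (23.4 FPKM), the insulin receptor-related gene *Insrr* (12.6 FPKM), the GIP receptor gene *Gipr* (11.04 FPKM) and *Igf1r* (7.56 FPKM). In replicate 3, 3 of the 8 were called lower, *Insrr* (-1.54, standard error 0.11), *Sstr3* (-0.90, standard error 0.08) and *Gipr* (-0.67, standard error 0.11), and the list's median was -0.21. *Gipr* missed the fold limit without control replicate 3 (-0.47). With the block, 1 of the 8 was called between conditions, *Insrr*, higher in activated cells by a log2 of 0.63 (standard error 0.10, edgeR adjusted p = 0.0337), and the list's median was 0.16. That call was lost without both replicate 2 libraries (0.67, adjusted p = 0.253) and, by its fold, without both replicate 3 libraries (0.48), and over all alternatives the log2 ran from 0.16 to 0.88.

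Enzymes that act on angiotensinogen and its products were listed as 19 genes, of which 13 had values and 9 passed the filter. *Ctsd*, which encodes cathepsin D, and *Atp6ap2*, which encodes the prorenin receptor, led with means of 358 and 332 FPKM, followed by the peptidase genes *Thop1* (17.8 FPKM), *Prep* (16.6 FPKM) and *Rnpep* (16.6 FPKM). The renin gene was not analysed here. In replicate 3 *Prcp* was called higher (log2 0.66) and *Prep* (-0.92) and *Rnpep* (-1.05) were called lower, the list's median being 0.02, and 0 of the 9 were called between conditions with or without the block. *Prcp* missed the fold limit without control replicate 3 (0.58).

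Several prohormone genes, *Sst* among them, are textbook targets of cyclic AMP signalling through CREB. Of 25 regulators of that pathway and of activity-dependent transcription, 24 had values and 22 passed the filter. The highest was *Prkar1a*, which encodes a regulatory subunit of protein kinase A, at a mean of 704 FPKM, followed by the catalytic subunit gene *Prkaca* (92.8 FPKM), *Kcnip3* (49.3 FPKM), which encodes DREAM, a repressor of *Pdyn* transcription, the phosphodiesterase gene *Pde3b* (36.6 FPKM) and the CREB coactivator gene *Crtc2* (24.4 FPKM). *Prkar1a* was the most changed of them in replicate 3, lower by a log2 of -1.45 (standard error 0.09). The other genes called lower were *Ep300* (-0.66) and *Pde4d* (-0.83), and the immediate-early genes *Junb* (0.85) and *Fosb* (0.74) were among the 3 called higher. The list's median was -0.07, and 0 of the 22 were called between conditions with or without the block. *Kcnip3* had a log2 difference of 0.08 (standard error 0.07) between conditions under the block.

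Transcription factors of the islet hormone genes were looked up in a list from which some factors were left out after the results were seen, so that its counts and median describe the kept genes only. Of 25 kept, 24 had values and 21 passed the filter, and 9 of the 21 were called lower in replicate 3, beside 15.4% of all tested genes. The lowest p-values among these were those of *Etv1* (-1.69), *Insm1* (-1.74), *Pax4* (-2.34), *St18* (-1.04) and *Pdx1* (-1.03). *Pdx1* had the highest mean FPKM of the 21 over the 6 libraries. In replicate 3 *Neurod1* exceeded it, at 115.6 against 92.62 FPKM in control and 137.48 against 99.13 FPKM in activated cells. The median of the kept genes was -0.33. *Pax4*, which represses the α-cell programme during islet development, was the single kept factor called between conditions with the block, higher in activated cells by a log2 of 0.84 (standard error 0.11, edgeR adjusted p = 0.00929), a call that was lost without both replicate 2 libraries (0.89, adjusted p = 0.127), and over all alternatives the log2 ran from 0.36 to 1.26. Some factors that mark other islet cells were near 0, with at most 1 count per library for *Hhex* of δ-cells, at most 2 counts for *Pou3f4* of α-cells, and at most 5 counts for *Fev*, while *Etv1*, a marker of PP cells, had 966 to 3153 counts.

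Whether other islet cell types contributed these hormones was looked at through their markers. For δ-cells, 3 of the 6 markers passed the filter, *Sst*, *Sstr3* and *Rbp4*, while *Hhex*, *Ghsr* and *Lepr* had at most 1, 2 and 3 counts in a library. Their summed level was 383, 333 and 177 FPKM in the control libraries, against 359.6, 330.0 and 157 FPKM in the activated libraries, most of it from *Sst*. In replicate 3 *Sstr3* was called lower and *Rbp4* higher (0.64, standard error 0.13). For α-cells, 5 of the 6 markers kept passed the filter, and the summed level was 1328, 1242 and 716 FPKM in control and 1349, 1331 and 876 FPKM in activated libraries. The transthyretin gene *Ttr*, at a mean of 1009 FPKM, made up most of it, and *Ttr* was called lower in replicate 3 (-0.80, standard error 0.07), while *Irx1* (0.40) and *Irx2* (0.49) were not called. *Gc* was higher in activated than in control libraries without overlap, by a log2 of 0.45 (standard error 0.06) under the block, with a fold under the limit. Conditions also did not overlap for *Irx1* (0.57, standard error 0.29, from 11 to 30 counts), the enteroendocrine marker *Tph1* (0.54, standard error 0.11) and the ductal marker *Krt19* (1.78, standard error 0.32, from 6 to 42 counts). All were higher in activated libraries, and none was called. Over all tested genes, 5.43% had conditions that did not overlap. For PP cells the markers *Ppy* and *Etv1* passed the filter and *Pyy* and *Fev* did not. The PP-cell markers summed to 112, 108 and 102 FPKM in control and 120.3, 118 and 129 FPKM in activated libraries. Most of this sum came from *Ppy* in every library, a gene chosen with these values known. The tested PP-cell markers went opposite ways in replicate 3, which the sum does not show. *Ppy* was called higher there (0.70, standard error 0.08) and *Etv1* lower (-1.69, standard error 0.06). Enteroendocrine markers, which *Cck* dominated, summed to 14035, 13049.8 and 13273 FPKM in control, against 11627, 12094 and 10633 FPKM in activated libraries, which were thus the lower ones. *Cck* itself was lower in activated libraries without overlap, and was not called between conditions (-0.24 under the block, standard error 0.07). Ductal markers summed to at most 14.1 FPKM, acinar markers to at most 1.62 FPKM and stromal or immune markers to at most 1.00 FPKM. *Hhex* of δ-cells and *Pou3f4* of α-cells were thus near 0 in libraries that held *Sst* and *Gcg*, while the α-cell factor genes *Irx1* and *Irx2* averaged 0.665 and 1.57 FPKM. The part of other cell types in the levels was not tested further.

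All 7 genes had promoters in the RefSeq set for GRCm38.p6, 9 windows in all, each from 250 bases before to 50 after the annotated start. The full cyclic AMP response element TGACGTCA was searched on both strands, as were its core TGACG, which is part of the full element, the homeodomain core TAATTA and the TATA box TATAAA. The full element was present for 2 of the 7 genes, *Cartpt* and *Sst*, and in 1.79% of all 32851 promoters. Its core was present for the same 2 genes and in 20.8% of promoters, and TAATTA for 0 of the 7 genes and in 5.29%. *Cartpt* and *Sst* are shown because they hold this element, and whether it bears on their levels was not tested. Both stretches are on the minus strand, chr13:99900777-99900806 for *Cartpt* and chr16:23890874-23890903 for *Sst*, upstream of the RefSeq start and inside the first exon of a GENCODE transcript that starts farther upstream. The element, in capitals, begins at base -112 from the RefSeq start of *Cartpt* and at base -48 from that of *Sst*.

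Cartpt: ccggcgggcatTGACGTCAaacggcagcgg
Sst: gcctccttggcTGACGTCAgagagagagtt

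TATAAA was the only form of the TATA box that was searched. It was present for 3 of the 7 genes, *Agt*, *Ppy* and *Gcg*, and in 13.6% of all promoters. It began at base -30 for *Agt*, at -31 for *Ppy* and at -24 for *Gcg*, which also held its reverse complement TTTATA at -72. The last 100 bases before the start are shown for these 3, to give the element with the bases around it, and the place of the element says nothing on the differences above. They are on the minus strand of GRCm38.p6, cover no GENCODE exon of the gene, and lie at chr8:124569707-124569806 for *Agt*, chr11:102101320-102101419 for *Ppy* and chr2:62483654-62483753 for *Gcg*, with TATAAA or TTTATA in capitals.

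Agt: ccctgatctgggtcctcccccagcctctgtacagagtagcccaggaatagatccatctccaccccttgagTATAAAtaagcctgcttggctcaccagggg
Ppy: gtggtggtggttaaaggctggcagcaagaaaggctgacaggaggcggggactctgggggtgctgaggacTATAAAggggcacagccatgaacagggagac
Gcg: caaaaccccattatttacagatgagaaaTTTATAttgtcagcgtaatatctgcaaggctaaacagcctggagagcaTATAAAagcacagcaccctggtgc

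These matches describe letters in the windows and not bound sites. No match for *Pdyn* and *Pyy* says only that these letters are not in their windows.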

How the data were processed

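Total RNA of 3 control and 3 *Thada*-activated MIN6 libraries had been sequenced on a BGISEQ platform. The authors deposited estimated counts per gene, which are not all whole numbers, and FPKM values. Bowtie2, RSEM, DESeq2 and the build GRCm38 are named in the submitters' processing notes, without versions or settings. The authors' own comparison of the conditions, also deposited, was not used.

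Counts were rounded and tested with edgeR 4.0.16 in R 4.3.3 (TMM, filterByExpr, robust quasi-likelihood fit) over 12516 genes, after tests on simulated data. DESeq2 1.42.0 served as an alternative, on 16610 genes rather than 12516, and tables were made with Python 3.11.15 and pandas 2.3.3. CPM is counts over the library total, log2 ratios add 0.5 to the counts, and log2 fold changes have the standard error |log2| over the square root of F. The main condition test had no block. Deviations from the condition means correlated at 0.596, 0.607 and 0.842 between libraries of the same number. Replicates 1 and 2 correlated more highly when crossed (0.652 and 0.691). The values thus match replicate 3 across conditions, and do not tell which libraries of replicates 1 and 2 go together. For these the ratios within numbers, and the block, rest on the labels alone. No libraries were duplicates.

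The 7 genes and the gene lists were chosen with earlier results of these data known, and some genes were taken out of the lists of transcription factors and α-cell markers after the results were seen. Named genes were the 7, the insulin genes and *Thada*, and per list some or all of the 5 with the highest mean FPKM and up to 5 called per test. Further names are genes at or near 0, markers, *Oprd1* and, for each member except *Pyy*, the 3 genes of most similar course. Alternatives changed the normalization, filter, test, library sizes, call rule, block and libraries. Gene positions are from GENCODE M21 and promoters from RefSeq.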

Additional observations from a re-analysis of the deposited data

Results flagged for a closer look

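The interaction term, which sets the condition difference in replicate 3 against that in replicates 1 and 2, had an edgeR adjusted p under 0.05 for *Thada*, *Ins2* and 6 of the list genes named in the report, and for 0 of the 6 members. Replicate 3 has 1 library per condition, so that the spread in this test comes from replicates 1 and 2 alone. These values therefore do not show that the differences are unequal. On the log2 scale the difference was 0.52 for *Thada* and -0.40 for *Ins2*. It was 0.42 for *Iapp*, 0.59 for *Insrr*, 0.46 for *Prkar1a*, 0.40 for *Sstr3*, 0.38 for *Glp1r* and 0.38 for *Pcsk1*, and list genes not named here had an adjusted p under 0.05 in either direction. Only *Insrr* also passed the fold limit of 1.5.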

How the results depend on the processing

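Without the block, the condition test called 0 genes under the other normalization, without the filter, with library sizes that leave out *Ins1* and *Ins2*, by adjusted p alone and without any single library (lowest 0, highest 0). DESeq2 called 5, 0 of them members. With the replicate block it called 19 genes and 2 members, 42 and 2 without both libraries of replicate 1, 11 and 2 without replicate 2, 70 and 2 without replicate 3, and 18 and 2 by DESeq2. Replicates 1 and 2 alone, without a block, gave 66 genes and 2 members. The block changed no other call on a member. Between replicate 3 and the others, leaving out single libraries gave 3645 to 4061 calls with 4 members each, *Ins2* passed the fold limit without any single activated library (0.59 to 0.77), adjusted p alone gave 8592 calls, and without the condition term 2 members were called, *Cartpt* (1.37) and *Agt* (-1.03) no longer among them. The interaction, under alternatives chosen after seeing the data, called 41 genes by DESeq2 and 167 to 343 with single libraries of replicates 1 and 2 left out, the highest without control replicate 1, and 0 members throughout. The cause of these shifts was not tested, beyond the fewer libraries in each fit. Signs turned for small differences. With single libraries left out, the condition difference ran from -0.37 (without control replicate 3) to 0.22 (without activated replicate 3) for *Sst*, -0.15 (without control replicate 3) to 0.18 (without control replicate 1) for *Gcg*, -0.18 (without activated replicate 3) to 0.48 (without control replicate 3) for *Ins1* and -0.26 (without control replicate 2) to 0.21 (without control replicate 3) for *Ins2*. Without both replicate 3 libraries *Gcg* was -0.11 with or without the block, and *Ins2* was 0.078 with it and 0.075 without. Between replicate 3 and the others, *Pdyn* ran from -0.059 (without control replicate 1) to 0.017 (without control replicate 2) and was 0.029 within activated libraries. Over 18 alternatives, the condition difference kept its sign for *Cartpt* (0.36 to 1.51), *Agt* (0.67 to 1.22), *Ppy* (0.02 to 0.56) and *Pdyn* (-0.46 to -0.38). Of the called list genes, 27 were refitted for replicate 3, and 25 of them stayed called in each alternative fit, the others being *Gipr* and *Prcp*. Depth limited *Pyy*, at 0 to 5 counts.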

Other observations

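The genes whose course over the 6 libraries was most like that of each member except *Pyy*, by Pearson's r of log2(CPM + 0.5) among 12076 other genes, are given as a description. Many genes share the split of replicate 3 from the rest, and high values were common. *Sst* followed *Klhl18*, *Mcoln1* and *Pxn* most closely (r = 0.998, 0.998 and 0.997), and 2538 genes had an r over 0.9 with it. For *Ppy* these were *Rpl36*, *Abcd2* and *Pgbd5* (each r = 0.997), with 1119 genes over 0.9. *Cartpt* was nearest to *Tnip1* (0.996), *Cish* (0.994) and *Igfbp4* (0.993), with 519 genes over 0.9, and *Agt* to *Cyb5r3* (0.994), *Gm42031* (0.993) and *Glyr1* (0.992), with 317 genes. *Gcg* was nearest to *Hps5* (0.993), *Trip13* (0.990) and *Diaph2* (0.985), with 284 genes. *Pdyn*, which separated the conditions and not the replicate numbers, had the fewest like genes, 30, led by *B3galnt1* (0.974), *Naa15* (0.972) and *Dym* (0.969).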
